A study of Mus musculus with 25 samples.

Results

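Deletion of both Casp8 and Ptpn6 in mouse neutrophils that also lack Mlkl was examined by setting the 2 bone marrow neutrophil libraries of genotype Casp8∆PMN Mlkl-/- Ptpn6∆PMN (called joint-deleted here) against the 3 libraries of genotype Mlkl-/-. The members were taken by their genotype labels and make up 5 of the 25 libraries of the series, each a bulk messenger RNA library. All mice were female, on a C57BL/6J background and, per the labels, 6 to 13 weeks old. Bone marrow was layered on Percoll and the neutrophil interface was collected. Both groups carry the whole-body Mlkl knockout and are labelled as not inflamed. A single library of genotype Casp8∆PMN Ptpn6∆PMN, with Mlkl intact and labelled as inflamed, is shown as 1 point with no test. Side by side stand 2 libraries of Mlkl-/- Ptpn6∆PMN, and the same pair of deletions was also compared in the absence of Ripk3, in 2 libraries of Ripk3-/- Mlkl-/- Casp8∆PMN Ptpn6∆PMN against 2 of Ripk3-/- Mlkl-/-. The labels do not name the Cre line behind the ∆PMN deletions, and no library has Casp8∆PMN with Ptpn6 left intact. Loss of the genes, the Cre transgene and DNA linked to the floxed alleles therefore cannot be told apart. The labels do not say whether the libraries of a group came from separate mice. The p-values therefore measure the spread between libraries of a group, pooled over the 23 libraries of the 9 replicated groups.

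Ptpn6 encodes SHP-1, a tyrosine phosphatase of blood cells that binds inhibitory receptors and restrains signalling from cytokine, integrin and pattern recognition receptors in neutrophils. Caspase-8 is the protease that starts death receptor apoptosis and cuts RIPK1 and RIPK3. Where caspase-8 is missing, RIPK3 can phosphorylate MLKL, a pseudokinase that ruptures the plasma membrane in necroptosis. Mlkl-/- cells cannot complete that last step, so this death route is closed in both groups compared.

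The results turned on a few genes and gene groups, and the promoter windows of 4 of these genes are shown, each spanning 1 annotated start site (RefSeq, GRCm38.p6, 5′ to 3′ on the gene's strand). Ap1s1 and Sh2b2 are shown because they were the genes other than Ptpn6 that passed the test. Ngp represents the specific granule genes and Ifitm3 the interferon response genes. Capitals mark TTNNGCAA, a C/EBP-like pattern, in Ap1s1 (chr5:137046059-137046358, minus strand) and Ngp (chr9:110419558-110419857, plus strand). Capitals mark a pair of TTTC runs with 2 bases between them, the core of the interferon-stimulated response element, in Ifitm3 (chr7:141010695-141010994, minus strand). In Sh2b2 (chr5:136244891-136245190, minus strand), which held neither pattern, capitals mark the bases after the start site of that window. The RefSeq gene reaches farther upstream, to chr5:136246595, so the window lies inside the gene and other transcripts may start elsewhere.
Ap1s1: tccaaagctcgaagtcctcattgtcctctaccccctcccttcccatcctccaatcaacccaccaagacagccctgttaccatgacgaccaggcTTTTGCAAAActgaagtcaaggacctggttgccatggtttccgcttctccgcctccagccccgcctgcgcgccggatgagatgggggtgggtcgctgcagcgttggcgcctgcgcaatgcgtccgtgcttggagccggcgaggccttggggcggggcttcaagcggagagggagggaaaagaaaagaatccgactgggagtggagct
Sh2b2: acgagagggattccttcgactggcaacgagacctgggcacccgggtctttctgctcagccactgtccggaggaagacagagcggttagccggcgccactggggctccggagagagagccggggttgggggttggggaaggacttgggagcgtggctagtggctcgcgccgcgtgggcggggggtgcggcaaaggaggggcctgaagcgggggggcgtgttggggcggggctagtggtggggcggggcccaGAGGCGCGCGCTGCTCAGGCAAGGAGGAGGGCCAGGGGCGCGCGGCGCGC
Ngp: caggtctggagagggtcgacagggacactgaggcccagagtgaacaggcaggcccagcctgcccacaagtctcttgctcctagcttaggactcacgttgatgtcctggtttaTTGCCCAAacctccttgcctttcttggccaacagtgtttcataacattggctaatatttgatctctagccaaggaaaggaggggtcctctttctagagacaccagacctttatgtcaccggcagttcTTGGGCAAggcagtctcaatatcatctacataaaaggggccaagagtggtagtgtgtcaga
Ifitm3: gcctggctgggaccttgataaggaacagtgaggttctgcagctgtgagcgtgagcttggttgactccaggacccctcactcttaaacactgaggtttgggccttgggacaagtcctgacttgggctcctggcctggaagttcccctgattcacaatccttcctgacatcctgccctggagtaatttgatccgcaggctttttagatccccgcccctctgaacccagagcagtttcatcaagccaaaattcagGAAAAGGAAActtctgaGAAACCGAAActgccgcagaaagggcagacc
Both strands were searched for both patterns, and the TTTC pair reads GAAA on the other strand. The capitals of Ap1s1 hold 2 overlapping matches on opposite strands, and the Ngp and Ifitm3 windows hold 2 separate matches each. TTNNGCAA occurred in 6 of the 20 specific granule genes with a window (30.0%: Ltf, Ngp, Lcn2, Anxa1, Slpi and Dmkn). It occurred in 12.2% of all 27025 genes with a window and 10.7% of the 12162 tested ones. The TTTC pair occurred in 18 of the 31 interferon response genes with a window (58.1%), beside 3.99% of all genes with a window and 3.9% of the tested ones. A match describes the letters of the window and shows no binding.

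The targeted genes come first. The Ptpn6 level, in counts scaled to library size (CPM), was 234 and 239 in the joint-deleted libraries, against 490, 707 and 646 in Mlkl-/-. The groups did not overlap, and Ptpn6 fell to a 0.385-fold level (log2 change -1.38, SE 0.18, adjusted p = 0.00308, edgeR quasi-likelihood test with Benjamini-Hochberg adjustment, used for all adjusted p-values here). The counts are gene totals, which do not separate the deleted exons from the rest or neutrophils from other cells in the preparation. In bulk libraries, fewer cells of a type and less RNA per cell cannot be told apart. Without joint-deleted replicate 2 the call was lost at nearly the same size (log2 change -1.39, adjusted p = 0.175), and likewise with a macrophage marker covariate (log2 change -1.21, adjusted p = 0.0898).

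Casp8 stood at 17.5 and 21.8 CPM in the joint-deleted libraries and at 28.9, 26.6 and 24.9 CPM in Mlkl-/-. Every joint-deleted library lay below every Mlkl-/- library, with a log2 change of -0.45 (SE 0.17) that did not pass the adjusted test (adjusted p = 0.21). Casp8 had 16.3 and 23.5 CPM in Ripk3-/- Mlkl-/- Casp8∆PMN Ptpn6∆PMN, against 29.7 and 33.5 CPM in Ripk3-/- Mlkl-/-. In the single library with Mlkl intact it was at 18.5 CPM, while the 2 Mlkl-/- Ptpn6∆PMN libraries had 21.3 and 32.8 CPM. Mlkl was at 1.16 and 1.64 CPM in the joint-deleted libraries, against 0.880, 0.512 and 0.753 CPM in Mlkl-/-, at the low end of the scale (57 counts in all, against 48). Both joint-deleted libraries lay above every Mlkl-/- library. The single library with Mlkl intact had 3.90 CPM and the 3 wild-type libraries had 3.50 to 4.86 CPM, but the 3 Ripk3-/- libraries, also with Mlkl intact, had 1.40 to 1.85 CPM, a range that holds one of the joint-deleted values. Ripk3 is intact in both groups, at 3.17 and 5.22 CPM, against 4.78, 2.51 and 2.78 CPM, and the groups overlapped.

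**Figure D1:**
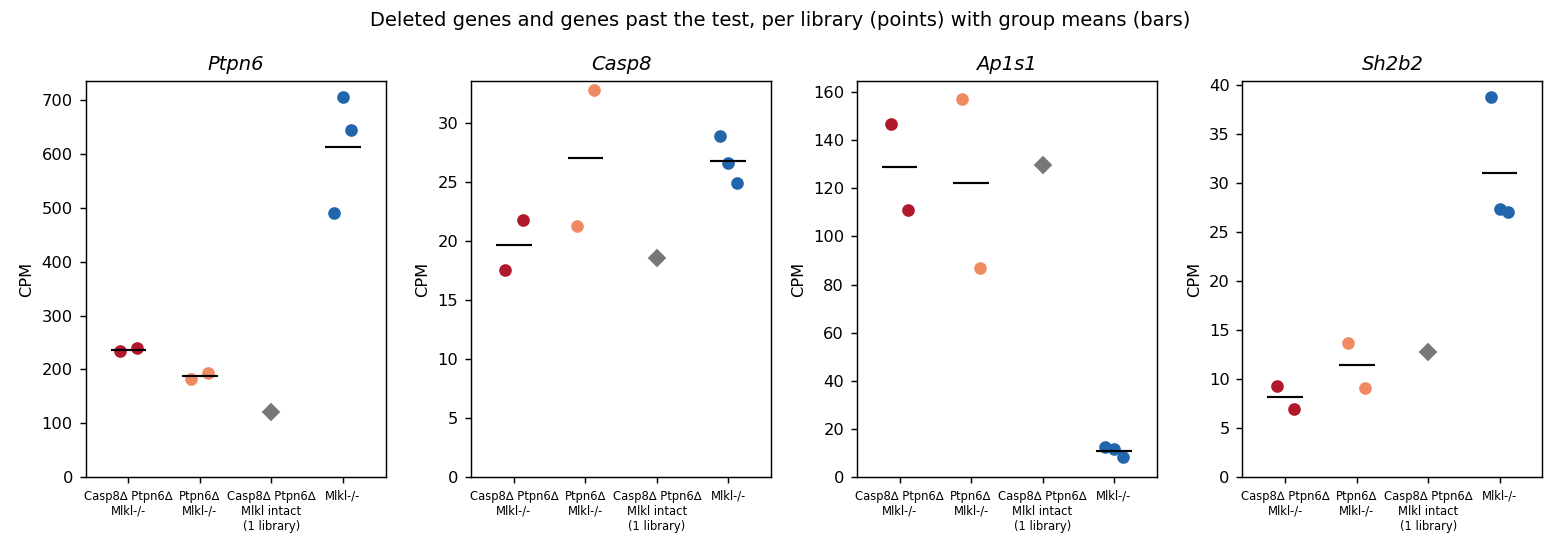
Levels of Ptpn6, Casp8, Ap1s1 and Sh2b2 in library-size-scaled counts (CPM, y axes starting at 0) for each library (points) with group means (bars), in the joint-deleted, Mlkl-/- Ptpn6∆PMN, single Mlkl-intact and Mlkl-/- libraries. Ap1s1 lies between 87.0 and 157 CPM in every plotted library with Ptpn6 deleted and between 8.33 and 12.4 CPM in Mlkl-/-.

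Across the transcriptome, 3 of 16206 genes (0.0185%) passed the adjusted test: Ap1s1 rose, and Ptpn6 and Sh2b2 fell. Many more genes differed without reaching that threshold. At an unadjusted edgeR p under 0.05 stood 2506 genes, of which 1457 were higher (8.99% of the genes tested) and 1049 lower (6.47%), and 201 had an adjusted p under 0.1, of which 145 were higher. In 2952 genes (18.2%) both joint-deleted libraries lay above all 3 Mlkl-/- libraries, and in 2646 (16.3%) they lay below. The number of calls depended on the model: DESeq2 called 378 genes in the same libraries, and edgeR called 172 when fitted to only these 5 libraries.

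Ap1s1 encodes a small subunit of the AP-1 clathrin adaptor, which sorts cargo between the trans-Golgi network and endosomes. It had 147 and 111 CPM in the joint-deleted libraries, against 12.4, 11.7 and 8.33 CPM in Mlkl-/-. The 2 groups were far apart, an 11.9-fold rise (log2 change 3.57, SE 0.26, adjusted p = 4.43e-07). It was called in every alternative fit. Sh2b2 encodes an SH2 adaptor (APS) that binds receptor tyrosine kinases and recruits CBL, and was part of the list of phosphatases and kinases linked to SHP-1. Sh2b2 had 9.32 and 6.96 CPM in the joint-deleted libraries, against 38.8, 27.3 and 27.1 CPM in Mlkl-/-. The groups did not overlap, and it fell to a 0.262-fold level (log2 change -1.93, SE 0.27, adjusted p = 0.00632). The call was lost without joint-deleted replicate 2 (log2 change -1.74, adjusted p = 0.325).

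Both genes stood at similar levels in other libraries with Ptpn6 deleted. The single Mlkl-intact library had 130 CPM of Ap1s1 and 12.8 CPM of Sh2b2. Mlkl-/- Ptpn6∆PMN libraries, which have Casp8 intact, had 157 and 87.0 CPM of Ap1s1 and 13.7 and 9.04 CPM of Sh2b2. Casp8 deletion added to Ptpn6 deletion in Mlkl-/- gave log2 changes of 0.08 for Ap1s1 and -0.48 for Sh2b2 and 0 called genes in edgeR (1515 at an unadjusted p under 0.05). Ptpn6 deletion alone in Mlkl-/- gave 3.50 for Ap1s1 and -1.45 for Sh2b2, and 244 called genes. These last comparisons share libraries with the joint deletion, so the values stand side by side and are not independent.

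Ap1s1 (chr5:137034993-137046108) and Sh2b2 (chr5:136218147-136246595) have lowest coordinates 816846 bp apart on chromosome 5, which holds none of the deleted genes. Of 36 other tested genes in the window chr5:135718147-137546108 around them, 0 passed the adjusted test in edgeR and 5 had an unadjusted p under 0.05. Their median log2 change was 0.07, ranging from -0.85 in Gm30408 to 1.12 in Gm40346, both annotated as long noncoding RNAs. Gm30408 (chr5:136245435-136251861) overlaps the upstream end of the Sh2b2 gene but not the promoter window shown, and whether counting used the strand is not given in the sources used here, so reads of the pair could have been split either way. Ptpn6 lies on chromosome 6 (chr6:124720707-124738709), Casp8 on chromosome 1 (chr1:58795233-58847503) and Mlkl on chromosome 8 (chr8:111311255-111338479). Within 10 Mb of Casp8, 23 of 103 tested genes (22.3%) had an unadjusted p under 0.05. Around Ptpn6 the share was 34 of 202 (16.8%) and around Mlkl 22 of 171 (12.9%), beside 15.8% of all genes with a position.

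Beyond the called genes, the 20 genes of smallest p with at least 5 CPM included 17 with adjusted p from 0.0676 to 0.0732, 14 of them higher. All 20 had groups that did not overlap (beside 18.2% of all genes higher and 16.3% lower), and DESeq2 called all 20. They were picked by smallest p in these same libraries, so neither count is independent support. Ndufv2, a core subunit of mitochondrial complex I, had 25.4 and 34.9 CPM in the joint-deleted libraries, against 18.3, 17.8 and 16.9 CPM in Mlkl-/- (log2 change 0.77, SE 0.13, adjusted p = 0.0676). Psmd14, the deubiquitinase of the proteasome lid, had 26.3 and 29.5 CPM, against 18.5, 19.5 and 16.6 CPM (log2 change 0.62, SE 0.11). H2afz, the histone variant H2A.Z, had 118 and 171 CPM, against 91.7, 67.8 and 63.8 CPM (log2 change 0.95, SE 0.18). Each of these had its lowest joint-deleted value above the highest Mlkl-/- value.

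Others of the 20 included Lmo1, a LIM-only transcription cofactor, at 10.9 and 12.3 CPM in the joint-deleted libraries and 3.69, 2.42 and 1.32 CPM in Mlkl-/- (log2 change 2.22, SE 0.41). Adss, which makes adenylosuccinate in purine synthesis, had 76.1 and 79.1 CPM, against 45.0, 45.6 and 42.7 CPM. Tmed3, a cargo receptor of the early secretory pathway, had 35.3 and 44.4 CPM, against 23.6, 20.4 and 16.5 CPM. The higher genes also held Fam98b (log2 change 0.86), Mpnd (0.84), Tnnt1 (1.29), 1810037I17Rik (0.97), Lsm4 of the U6 snRNA ring (0.73), Mmadhc of cobalamin trafficking (0.77), the ciliary protein gene Tmem216 (1.51) and Tmem256 (1.55). Tmem256 spread most, at 7.96 and 18.7 CPM in the joint-deleted libraries, against 6.08, 3.72 and 3.81 CPM. On the lower side, Rest, a repressor of neuronal genes, had 13.8 and 11.3 CPM, against 21.3, 18.7 and 20.3 CPM (log2 change -0.68, SE 0.13). Dnajc28 had 4.68 and 3.77 CPM, against 8.60, 7.91 and 11.5 CPM (log2 change -1.14), and 1700071M16Rik had 8.61 and 6.14 CPM, against 18.1, 19.0 and 29.2 CPM (log2 change -1.58).

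The same deletions in Ripk3-/- Mlkl-/- mice share no library with the Mlkl-/- comparison. There 2 genes (0.0123%) passed: Ap1s1, at 92.0 and 118 CPM, against 9.95 and 8.16 CPM in Ripk3-/- Mlkl-/- (log2 change 3.53, SE 0.30, adjusted p = 7.92e-06), and Rxra. Rxra, a retinoid X receptor that pairs with other nuclear receptors, had 19.9 and 17.5 CPM, against 38.0 and 36.0 CPM in Ripk3-/- Mlkl-/- (log2 change -0.99, adjusted p = 0.0315). In Mlkl-/- alone, Rxra had 20.4 and 18.6 CPM in the joint-deleted libraries, against 27.7, 27.4 and 31.7 CPM (log2 change -0.57, adjusted p = 0.0917). Its call in Ripk3-/- Mlkl-/- was lost without any 1 of the 4 libraries (adjusted p = 0.053 to 0.807). Ptpn6 had a log2 change of -1.15 there (adjusted p = 0.0506) and Sh2b2 one of -1.34.

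Of the 1457 genes higher in Mlkl-/- at an unadjusted p under 0.05, 1267 (87.0%) had the same sign in Ripk3-/- Mlkl-/-, and of the 1049 lower genes 909 (86.7%) did. Over all genes tested the shares were 67.6% of those higher and 70.1% of those lower. All 20 named genes had the same sign in both comparisons. The test of the difference between the 2 joint-deletion effects called 0 genes (0%), with 371 at an unadjusted edgeR p under 0.05 and 2 called by DESeq2.

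**Figure D2:**
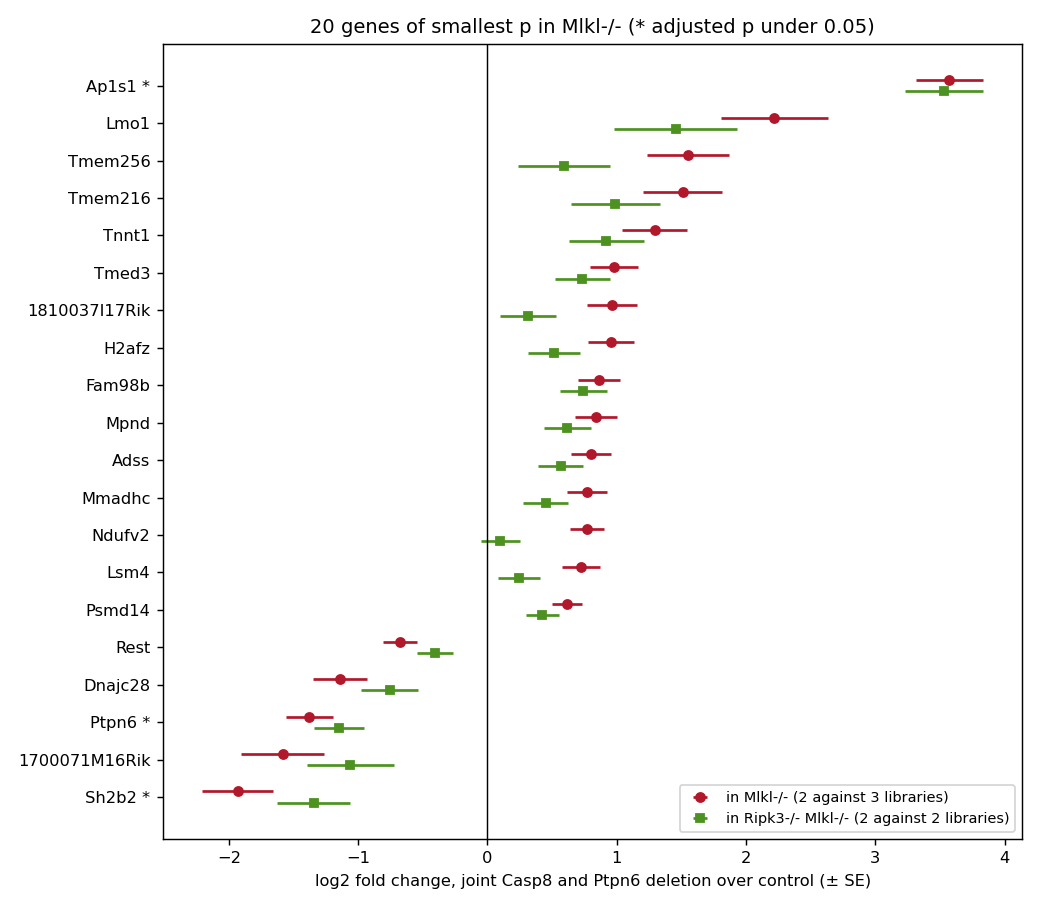
Log2 fold changes with SE of the 20 genes of smallest p for joint Casp8 and Ptpn6 deletion in Mlkl-/- (circles, 2 against 3 libraries) and in Ripk3-/- Mlkl-/- (squares, 2 against 2). Ap1s1 stands at 3.57 and 3.53, and all 20 genes lie on the same side of 0 in both comparisons.

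Genes of the neutrophil's specific (secondary) granules, which are filled at the myelocyte stage, lay higher as a group. All 23 tested members were higher in the joint-deleted libraries. At an unadjusted edgeR p under 0.05 stood 16 (69.6%, beside 8.99% of all genes higher). Groups did not overlap in 21, beside 18.2% of all genes higher. In edgeR 0 members had an adjusted p under 0.05 (6 in DESeq2). Their median log2 change was 0.73, beside -0.01 over all genes, and it was 0.35 with an erythroid marker covariate. Camp, the cathelicidin antimicrobial peptide, had 4335 and 5243 CPM, against 2298, 1694 and 1324 CPM in Mlkl-/- (log2 change 1.44, SE 0.35, adjusted p = 0.0917). Ngp, the most abundant of those named, had 25570 and 27940 CPM, against 13680, 11920 and 10600 CPM (log2 change 1.15, SE 0.37). Every joint-deleted value lay above every Mlkl-/- value in both genes.

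Ltf, the iron-binding lactoferrin, had 12760 and 14900 CPM in the joint-deleted libraries, against 7829, 6086 and 4783 CPM in Mlkl-/- (log2 change 1.15). Lcn2, the siderophore-binding lipocalin, had 11530 and 10820 CPM, against 6044, 7076 and 6452 CPM (log2 change 0.78). The members together made up 82370 to 87320 CPM in the joint-deleted libraries and 42600 to 48370 CPM in Mlkl-/-. The list holds Tmem216, a ciliary transition zone gene with no granule role known here, which had its smallest p. Cybb, the catalytic subunit of the phagocyte oxidase, is a member too, at 1868 and 1977 CPM, against 1194, 1083 and 1109 CPM (log2 change 0.77). The specific granule genes stood at a mean of 9.61 and 9.64 on the log2(CPM + 0.5) scale, against 8.92, 8.91 and 8.80 in Mlkl-/-. The single library with Mlkl intact was at 9.65 and the Mlkl-/- Ptpn6∆PMN libraries were at 9.62 and 9.52. In Ripk3-/- Mlkl-/- all 23 members were again higher, with a median of 0.48.

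Azurophil (primary) granule genes, made earlier at the promyelocyte stage, were higher in 10 of 13. At an unadjusted edgeR p under 0.05, 6 were higher (46.2%, beside 8.99% of all genes). The median log2 change was 0.61. With a macrophage marker covariate that median was 0.10, with 7 of 13 higher. Prss57, a serine protease, had 17.1 and 22.8 CPM, against 9.73, 13.6 and 10.4 CPM in Mlkl-/- (log2 change 0.82), and the tetraspanin Cd63 had 213 and 193 CPM, against 123, 138 and 114 CPM (0.70). The classical members overlapped between groups: Mpo, myeloperoxidase, had 53.8 and 97.3 CPM, against 114, 24.7 and 10.0 CPM. Elane, neutrophil elastase, had 7.81 and 16.8 CPM, against 14.1, 1.49 and 1.36 CPM, so Mlkl-/- replicate 1 set the upper end of both. Gfi1, a repressor needed for granulopoiesis, had 12.3 and 17.4 CPM, against 10.1, 7.73 and 6.97 CPM (log2 change 0.85). Gelatinase granule and late maturation genes were higher in 17 of 26, with a median of 0.10, which turned to -0.19 with an erythroid marker covariate. Wfdc21 led them at 674 and 823 CPM, against 334, 410 and 376 CPM.

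Cell cycle genes were higher in 31 of 36, with a median log2 change of 0.58. At an unadjusted edgeR p under 0.05, 9 were higher (25%, beside 8.99% of all genes) and 0 lower. The mean level, on the log2(CPM + 0.5) scale, was 3.94 and 4.64 in the joint-deleted libraries, against 4.38, 3.65 and 3.30 in Mlkl-/-, so the groups overlapped. Cdk2, a kinase of S phase entry, had 76.7 and 85.6 CPM, against 62.1, 49.6 and 48.2 CPM, and Ccnb2, a mitotic cyclin, had 22.2 and 32.8 CPM, against 17.1, 10.7 and 6.92 CPM. Without joint-deleted replicate 2 the median was 0.09 (22 of 36 higher), and with a macrophage marker covariate it was -0.18 (11 of 36 higher). The granule list kept a positive median in both settings, at 0.70 and 0.60.

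Lists drawn by gene name after the values were seen were higher for 2 housekeeping complexes and less so for the ribosome. Of 76 oxidative phosphorylation genes, 73 were higher, with a median log2 change of 0.42. At an unadjusted edgeR p under 0.05, 51 (67.1%) were higher and 1 lower. The 38 proteasome subunits were higher in 36, 26 (68.4%) at an unadjusted p under 0.05, with a median of 0.34. The 76 cytoplasmic ribosomal protein genes were higher in 70, 8 (10.5%) at an unadjusted p under 0.05, near the 8.99% of all genes, with a median of 0.19. That median was 0.03 (43 of 76 higher) with a macrophage marker covariate and 0.06 with the replicate block, without Mlkl-/- replicate 3 or without joint-deleted replicate 2. In Ripk3-/- Mlkl-/- these medians were 0.12, 0.11 and 0.00. Such genes have short transcripts, and change moved with transcript length over the 14431 genes that could be given one (89.0% of those tested). These genes were split by length into 5 groups of nearly equal size. The shortest group (up to 977 bases) had a median log2 change of 0.08, with 14.6% of genes higher at an unadjusted p under 0.05 and 4.81% lower. The longest group (3645 bases or more) had a median of -0.10, with 4.61% higher and 10.4% lower. In Ripk3-/- Mlkl-/- the medians of the shortest and longest groups were 0.01 and -0.04. The oxidative phosphorylation genes had a median length of 655 bases and the ribosomal protein genes 704, beside 2039 over all genes tested. Proteasome subunits had 1271 and the specific granule genes 1316, both in the second shortest group, whose median change was 0.06. The part of length in these shifts was not tested.

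**Figure D3:**
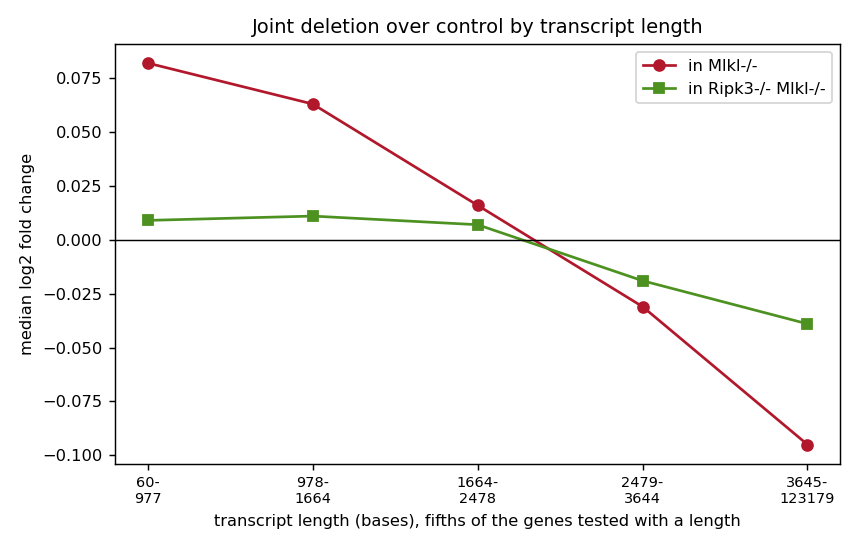
Median log2 fold change (y axis) of genes in 5 groups of transcript length (x axis, bases, shortest to longest) for joint deletion in Mlkl-/- (circles) and in Ripk3-/- Mlkl-/- (squares). From the shortest to the longest group the medians run from 0.08 to -0.10 in Mlkl-/- and from 0.01 to -0.04 in Ripk3-/- Mlkl-/-.

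Interferon response genes lay slightly higher. Of 41 members, 39 were higher, with a median log2 change of 0.34. At an unadjusted edgeR p under 0.05, 7 were higher (17.1%, beside 8.99% of all genes) and none lower. Without joint-deleted replicate 2 the median was 0.21 (32 of 41 higher). In edgeR 0 passed the adjusted test, in DESeq2 1 did, and in edgeR fitted to only the compared libraries 4 did. Ifitm3, an antiviral membrane protein, had 643 and 744 CPM, against 322, 432 and 341 CPM in Mlkl-/- (log2 change 0.93, SE 0.27, adjusted p = 0.123). Xaf1, an inhibitor of XIAP, had 19.0 and 27.5 CPM, against 11.99, 15.1 and 10.4 CPM (log2 change 0.90). Zbp1, a nucleic acid sensor that can bind RIPK3, had 53.7 and 60.4 CPM, against 26.2, 35.0 and 26.1 CPM (log2 change 0.97). In these 3 genes, picked by smallest p or after their values were seen, the groups did not overlap. On the log2(CPM + 0.5) scale, the mean list level was 5.81 and 6.15 in the joint-deleted libraries, 6.34 and 6.85 in Mlkl-/- Ptpn6∆PMN, 5.97 in the single Mlkl-intact library and 5.57, 5.79 and 5.39 in Mlkl-/-. In Ripk3-/- Mlkl-/- only 4 of 41 were higher, with a median of -0.30 and mean levels of 5.62 and 6.09, against 6.50 and 5.83, which overlapped. The difference between the comparisons was called for 0 interferon genes.

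Lipg, Prok2 and Nos2 are given in several genotypes, Nos2 having been picked after its values were seen. Lipg, an endothelial-type lipase, had 40.9 and 38.9 CPM in the joint-deleted libraries, 67.0 and 282 CPM in Mlkl-/- Ptpn6∆PMN, 106 CPM in the single Mlkl-intact library, and 3.44, 2.51 and 4.38 CPM in Mlkl-/-. The joint-deleted libraries lay above all Mlkl-/- libraries and below both with Casp8 intact (log2 change against Mlkl-/- 3.53, SE 0.83, adjusted p = 0.0884). Prok2, the chemokine-like prokineticin 2, had 152 and 168 CPM in the joint-deleted libraries, 236 and 536 CPM in Mlkl-/- Ptpn6∆PMN, 395 CPM in the single library, and 34.5, 81.6 and 41.0 CPM in Mlkl-/-. Nos2, the inducible nitric oxide synthase, had 0.302 and 0.725 CPM, 3.24 and 39.8 CPM, 17.8 CPM, and 0.0839, 0.186 and 0.330 CPM in the same 4 genotypes. The joint-deleted Nos2 values overlapped those of Mlkl-/-. Where Ripk3 was also absent and Casp8 intact, in Ripk3-/- Mlkl-/- Ptpn6∆PMN, levels were 6.37, 15.6 and 17.4 CPM for Lipg and 47.4, 33.5 and 125 CPM for Prok2, below the joint-deleted libraries. Nos2 had 0.192, 0.409 and 0.341 CPM there, overlapping the joint-deleted values. Where Casp8 was deleted as well, in Ripk3-/- Mlkl-/- Casp8∆PMN Ptpn6∆PMN, Lipg had 18.2 and 22.4 CPM, above all of Ripk3-/- Mlkl-/- Ptpn6∆PMN. Prok2 had 64.1 and 99.5 CPM and Nos2 0.591 and 0.189 CPM in those libraries, both overlapping Ripk3-/- Mlkl-/- Ptpn6∆PMN. Between the joint-deleted and Mlkl-/- Ptpn6∆PMN libraries, none of these genes passed the adjusted test in edgeR. Ripk3-/- Mlkl-/- Ptpn6∆PMN was not tested against another group.

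Among cytokines and chemokines 12 of 21 tested were higher, and Il10 and Ccl7 were at 0 in all 5 libraries. The median was 0.43 over those tested and -0.01 without the filter on low counts. Osm, oncostatin M, had 288 and 95.7 CPM, against 58.1, 88.2 and 74.0 CPM in Mlkl-/-. The joint-deleted libraries also differed from each other in Il1b (597 and 169 CPM, against 311, 529 and 408 CPM) and in Tnf (22.1 and 47.4 CPM, against 23.8, 20.6 and 31.6 CPM), where groups overlapped. Chemoattractant receptors were lower in 13 of 19 with a median of -0.17. At an unadjusted edgeR p under 0.05, 6 were lower (31.6%, beside 6.47% of all genes) and 1 was higher. Their smallest p belonged to Ltb4r1, the leukotriene B4 receptor, which was higher at 328 and 374 CPM, against 181, 186 and 176 CPM (log2 change 0.96, adjusted p = 0.0997). Lta4h, which makes leukotriene B4, had 311 and 413 CPM, against 214, 152 and 144 CPM (log2 change 1.09). Cxcr3 had 2.97 and 2.37 CPM, against 6.00, 6.61 and 5.08 CPM. Integrin and adhesion genes were lower in 18 of 26, with 8 lower (30.8%) and 1 higher at an unadjusted p under 0.05 and a median of -0.05, which turned to 0.02 without joint-deleted replicate 2. Among them Itga4, the α4 integrin chain, had 108 and 99.8 CPM, against 207, 197 and 216 CPM (log2 change -0.99), and its partner Itgb7 had 40.6 and 37.3 CPM, against 70.8, 61.5 and 64.0 CPM (-0.75).

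Genes of the death pathways themselves had medians near 0. Caspase-8 and necroptosis complex genes were higher in 19 of 30, with a median log2 change of 0.05, and inflammasome and pyroptosis genes in 9 of 16, with a median of 0.02. In the caspase-8 list 3 were higher and 3 lower at an unadjusted edgeR p under 0.05 (10% each). The inflammasome list had 2 higher (12.5%) and 1 lower (6.25%), beside 8.99% and 6.47% of all genes. Ticam1, the TRIF adaptor, had 19.4 and 20.8 CPM, against 13.1, 14.6 and 13.8 CPM in Mlkl-/-, and Tnfrsf1b, TNF receptor 2, had 171 and 140 CPM, against 224, 216 and 223 CPM. Nlrp3, an inflammasome sensor, had 168 and 122 CPM, against 197, 244 and 248 CPM, while its adaptor Pycard had 23.2 and 30.7 CPM, against 18.8, 17.6 and 13.8 CPM. These 4 genes, picked by smallest p in their lists, had groups that did not overlap and adjusted p from 0.115 to 0.149. Over all genes, groups did not overlap in 18.2% higher and 16.3% lower. BCL2 family genes were lower in 10 of 16, with a median of -0.23, but were evenly split at an unadjusted edgeR p under 0.05. There 3 were higher and 3 lower (18.8% each). Bcl2l11, the pro-apoptotic BH3-only protein BIM, had 30.3 and 26.5 CPM, against 42.0, 43.3 and 47.7 CPM (log2 change -0.64, SE 0.16, adjusted p = 0.0917).

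The lists around SHP-1 also had medians near 0, with members going both ways. At an unadjusted edgeR p under 0.05, 5 ITIM receptors were higher (26.3%, beside 8.99% of all genes) and 2 lower (10.5%, beside 6.47%). Among phosphatases and kinases 1 was higher (3.7%) and 4 were lower (14.8%), with Ptpn6 and Sh2b2 among these 4. ITIM receptors, which recruit SHP-1, were higher in 9 of 19 (median -0.02), the phosphatases and kinases linked to it in 13 of 27 (-0.02), and Fc receptors and ITAM adaptors in 7 of 16 (-0.03). Fcgr2b, the inhibitory Fc receptor, had 45.7 and 49.3 CPM, against 37.4, 26.9 and 34.2 CPM in Mlkl-/-, and Cd300a, another inhibitory receptor, had 141 and 116 CPM, against 182, 235 and 210 CPM. Medians for the other lists were 0.01 for NF-kB subunits and inhibitors (11 of 20 higher), -0.00 for the interleukin-1 family (9 of 18), -0.02 for JAK-STAT and SOCS (17 of 34) and -0.23 for Toll-like receptors and Cd14 (8 of 20). Further lists gave 0.11 for eicosanoid synthesis (12 of 21), 0.19 for glycolysis and hypoxia (25 of 34), 0.25 for phagocyte oxidase and nitric oxide (18 of 23) and -0.12 for granulopoiesis factors (12 of 29). Of these, 7 glycolysis genes (20.6%) and 5 phagocyte oxidase genes (21.7%) were higher at an unadjusted edgeR p under 0.05. In both lists 0 were lower, while eicosanoid synthesis had 4 higher and 4 lower (19% each). Of the granulopoiesis factors, 5 (17.2%) were higher and 6 (20.7%) lower at an unadjusted edgeR p under 0.05. Over the alternatives tried, the medians of all lists given for death pathways and SHP-1 partners changed sign at least once, except BCL2 family, glycolysis and phagocyte oxidase. Tpi1, a glycolytic isomerase, had 89.2 and 123 CPM, against 63.9, 71.3 and 61.0 CPM. Atf3, a stress-induced factor, had 1.41 and 1.01 CPM, against 6.12, 4.70 and 4.33 CPM (log2 change -2.06, SE 0.54, adjusted p = 0.101).

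**Figure D4:**
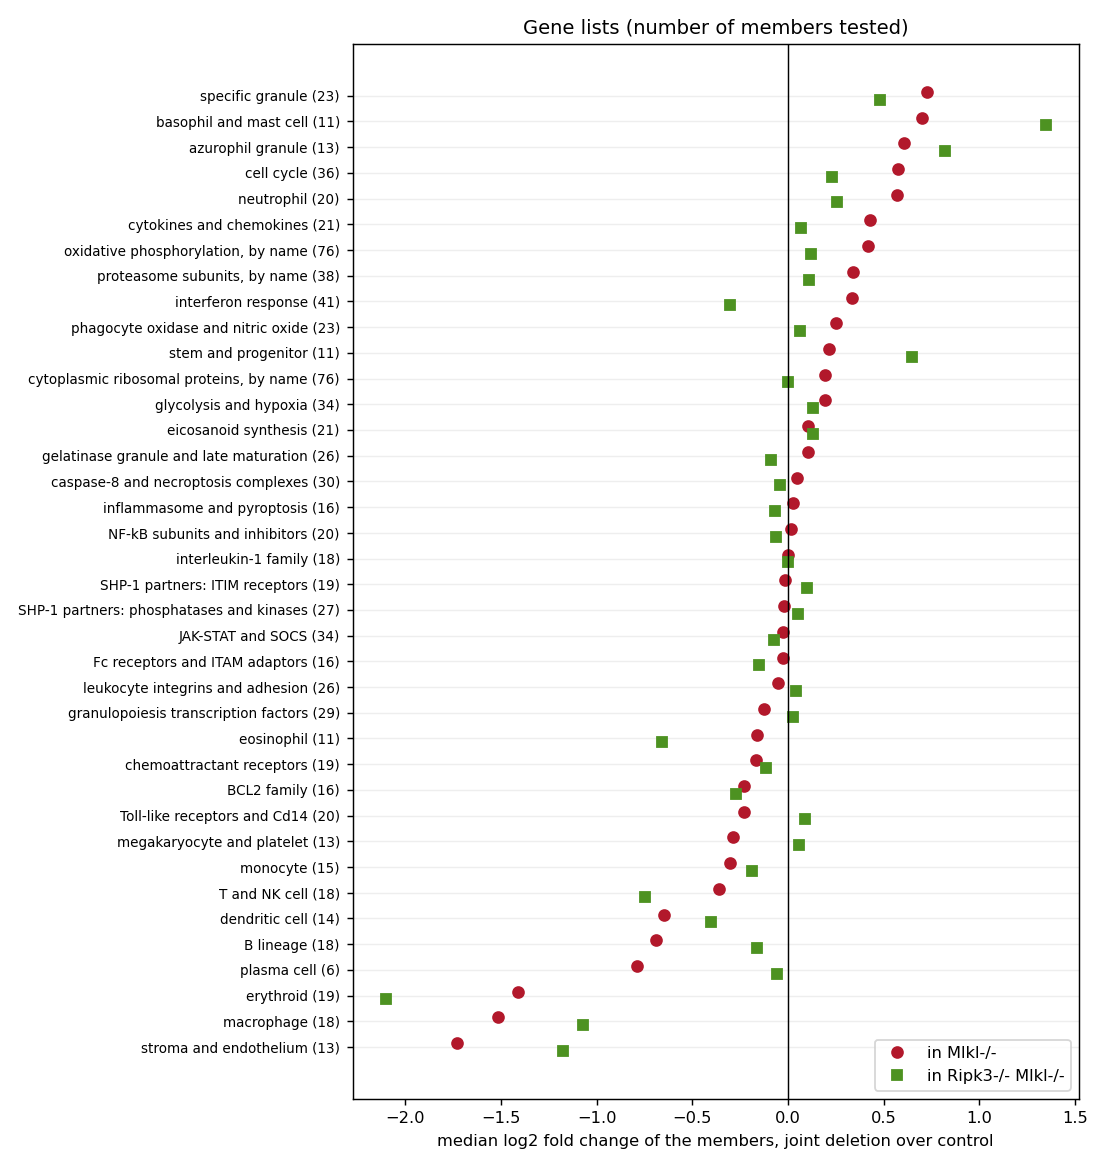
Median log2 fold change of the members of each gene list (number tested in brackets) for joint deletion in Mlkl-/- (circles) and in Ripk3-/- Mlkl-/- (squares), ordered by the Mlkl-/- comparison. Specific granule genes stand highest at 0.73 and stromal, macrophage and erythroid markers lowest, at -1.73, -1.52 and -1.41. The stromal median turns to 0.49 with a macrophage marker covariate.

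Markers of other cells in the Percoll fraction also differed between these groups. Macrophage markers were lower in 18 of 18 with a median of -1.52. At an unadjusted edgeR p under 0.05, 13 were lower (72.2%, beside 6.47% of all genes). Mertk, an apoptotic cell receptor, had 0.806 and 1.30 CPM, against 2.43, 2.93 and 4.38 CPM in Mlkl-/-, and Siglec1 had 1.76 and 1.45 CPM, against 3.31, 6.42 and 8.99 CPM. Their summed level was 660 to 739 CPM, against 663 to 1104 CPM. Erythroid markers were lower in 19 of 19 (median -1.41), at 802 and 3540 CPM summed, against 4313 to 7173 CPM. Of these, 5 (26.3%) had an unadjusted edgeR p under 0.05. Joint-deleted replicate 1 was the lowest, and the erythroid median was -2.82 without replicate 2 and -0.76 without replicate 1. Red cell gene Slc4a1 had 34.6 and 115 CPM, against 148, 243 and 313 CPM.

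B lineage markers were lower in 18 of 18 (median -0.69), at 579 to 710 CPM summed, against 819 to 1302 CPM. At an unadjusted edgeR p under 0.05 stood 3 of them (16.7%, beside 6.47% of all genes lower). Their mean level on the log2(CPM + 0.5) scale overlapped between the groups. Ms4a1 (CD20) had 24.0 and 24.4 CPM, against 66.4, 53.7 and 43.2 CPM. Plasma cell (6 of 6 lower), T and NK cell (15 of 18), dendritic cell (12 of 14), monocyte (12 of 15), eosinophil (7 of 11) and megakaryocyte markers (7 of 13) had medians of -0.79, -0.36, -0.65, -0.30, -0.16 and -0.29. In that order, 1, 1, 4, 3, 2 and 0 were lower at an unadjusted edgeR p under 0.05. At the same threshold 0, 1, 0, 1, 0 and 1 were higher. The monocyte median turned to 0.45 without Mlkl-/- replicate 1, 0.08 without joint-deleted replicate 1, and 0.24 and 0.22 with B lineage and erythroid covariates. The eosinophil median turned to 0.11 without Mlkl-/- replicate 1 and 0.24 with the B lineage covariate. The megakaryocyte median turned to 0.09 without Mlkl-/- replicate 3, 0.14 with the replicate block, 0.15 with only the compared libraries and 0.49 with the macrophage covariate. Stromal markers were lower in 12 of 13 (median -1.73) at 42.1 to 50.9 CPM summed, against 47.6 to 142 CPM. None of them had an unadjusted edgeR p under 0.05. The stromal median was -0.62 without Mlkl-/- replicate 3 and -0.18 with the replicate block, and turned to 0.49 and 0.48 with macrophage and erythroid covariates. Sparc alone ran from 0.0419 to 14.8 CPM in Mlkl-/-, against 0.957 and 0.580 CPM. Basophil and mast cell markers were higher in 11 of 11 (median 0.70), at 1679 to 1785 CPM summed, against 1016 to 1604 CPM, with Mcpt4 at 0 in all 5 libraries. Only 1 of the 11 (9.09%) had an unadjusted edgeR p under 0.05, near the 8.99% of all genes higher. Stem and progenitor markers were higher in 8 of 11 (median 0.21). The stem and progenitor median was -0.06 without Mlkl-/- replicate 2, -0.03 without replicate 3, 0.73 without replicate 1 and -0.25 with a macrophage covariate. The basophil and mast cell median was 0.27 without Mlkl-/- replicate 3 and 0.23 with an erythroid covariate. The 20 neutrophil markers, 18 of them higher, summed to 158400 to 159700 CPM, against 99020 to 115000 CPM. They include the specific granule genes Ngp, Ltf, Lcn2 and Camp, so this sum is not separate from the granule result. Ngp alone averaged 26750 CPM, against 12070 CPM. The part of other cells in the changes was not tested beyond the covariate fits. With macrophage, erythroid or B lineage marker covariates the specific granule median, 0.73 without them, was 0.60, 0.35 and 0.49.

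**Figure D5:**
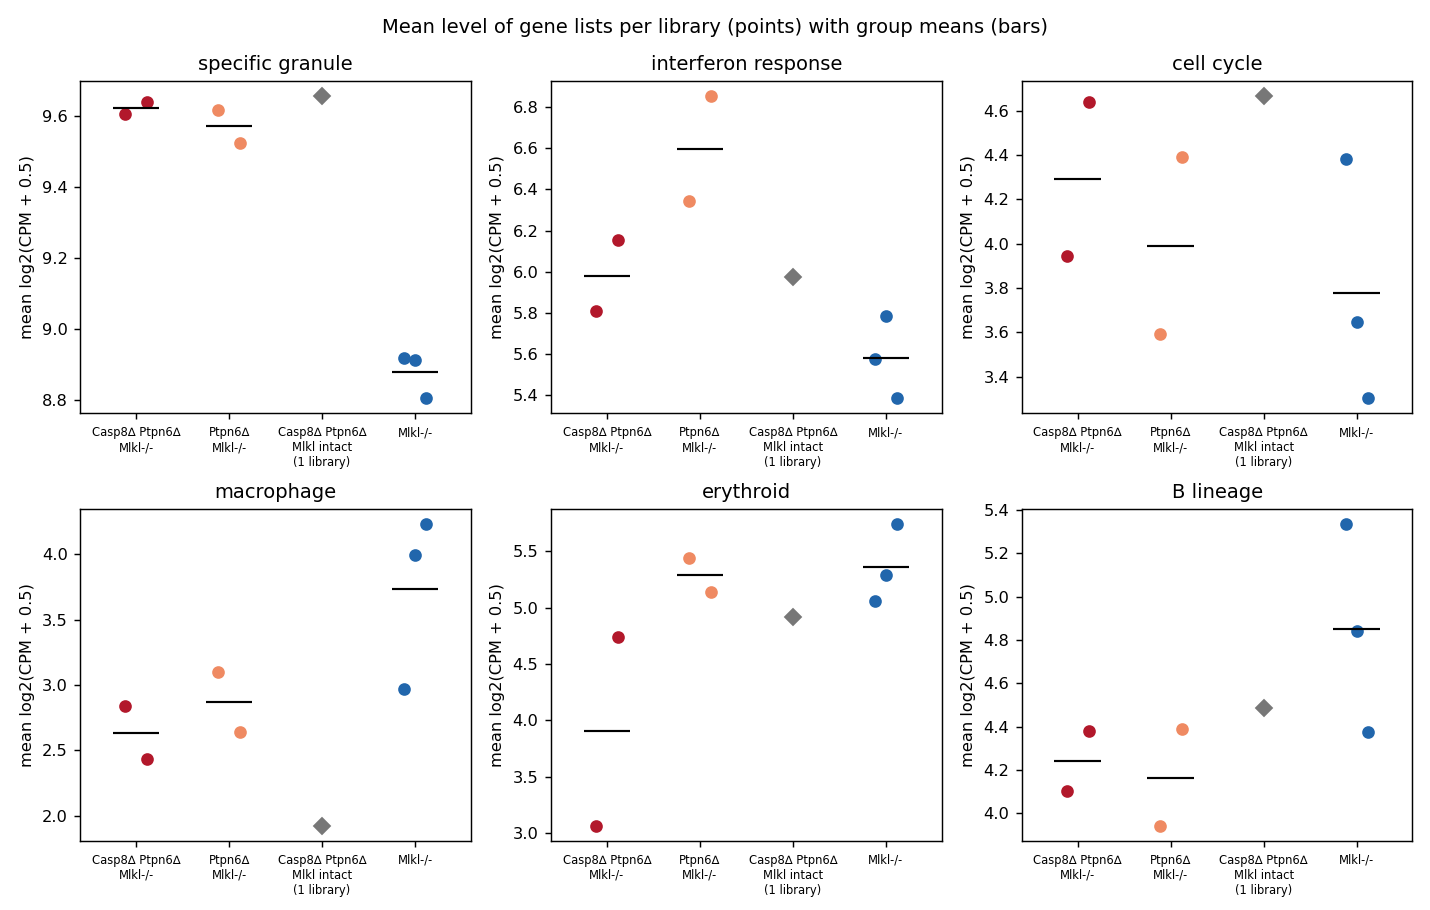
Mean log2(CPM + 0.5) of 6 gene lists per library (points; bars are group means) in the joint-deleted, Mlkl-/- Ptpn6∆PMN, single Mlkl-intact and Mlkl-/- libraries. Specific granule genes are at 9.61 and 9.64, against 8.80 to 8.92 in Mlkl-/-, while erythroid and macrophage markers are lower in both joint-deleted libraries and spread more.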

How the data were processed

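Per the labels' protocols, messenger RNA of Percoll-separated bone marrow neutrophils was sequenced as paired reads. The authors deposited the values as estimated counts: Salmon 0.14.1 quantified reads against GRCm38.p6, and DESeq2 is named as a further tool (per the submitters' processing notes). Neither the step from transcripts to gene symbols nor the use of strand is given in the sources used here. The table holds 35741 symbols in 25 libraries, with totals from 22219892 to 22807781 in the 5 libraries compared (21598063 to 23187557 in all).

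Counts were rounded. The 23 libraries of 9 replicated groups were fitted together in edgeR 4.0.16 (R 4.3.3): TMM scaling, filterByExpr (minimum count 10, minimum total 15), the quasi-likelihood F test with 14 residual degrees of freedom, and Benjamini-Hochberg adjusted p under 0.05 over 16206 genes. SE is the log2 change over the square root of F. CPM used effective library sizes. The single Mlkl-intact library and 1 library whose title and genotype label conflict were left out of the fit. Members, comparisons and gene lists were chosen with earlier results of these data known. Named genes were the targeted genes, the 20 of smallest p with at least 5 CPM (fewer than 10 were called), the 2 members of smallest p in the lists described, and genes called in Ripk3-/- Mlkl-/-. Ngp, Lcn2, Nos2, Zbp1, Il1b, Tnf, Mpo, Elane, the genes at 0 and the lists by name were chosen after their values were seen. Lists were described by counts and medians, with no set test. RefSeq supplied positions for 95.7% of genes tested and promoter windows, and GENCODE M21 transcripts of the same build gave lengths. Alternatives were DESeq2 size factors, no count filter, DESeq2 1.42.0 tests, a fit of the compared libraries only, a replicate block, marker covariates and leaving out each library. The pipeline was first tested on simulated counts. Figures used matplotlib 3.10.9.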

Additional observations from a re-analysis of the deposited data

How the results depend on the processing

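Joint deletion in Mlkl-/- gave 3 calls, and 3 also with DESeq2 size factors and with the replicate block (the same genes), whose numbers do not pair the libraries (correlations of deviations -0.34 and -0.15). It gave 37 calls without the count filter (28 higher, 9 lower), 378 with DESeq2 (226 higher, 152 lower), 172 with only the compared libraries (124 higher, 48 lower) and 23 with a B lineage covariate (18 higher, 5 lower). Leaving out 1 library gave 1 to 12 calls: 1 without joint-deleted replicate 2, 12 without replicate 1 and 10 without Mlkl-/- replicate 1. The cause was not tested. In Ripk3-/- Mlkl-/- the count of 2 became 4 without the filter, 13 with DESeq2 and 1 with either covariate added after seeing the data (erythroid or macrophage markers), and 1 to 8 without 1 library. There no paired analysis was possible because the groups share 1 replicate number. The difference of 0 became 2 with DESeq2 (Gm8615, Slc15a2) and 0 to 1 without 1 library (Wdr89, without Ripk3-/- Mlkl-/- replicate 3). Signs turned for uncalled genes: with the macrophage covariate Ripk3 was -0.32, Sparc 3.48, Nos2 -0.027, Il1b 0.18, Mpo -0.54 and Elane -0.085, and with the erythroid covariate Sparc was 2.42 and Nos2 -0.00314. Without 1 library Il1b ran from -1.30 to 0.52, Ripk3 from -0.083 to 0.67 and Tnf from -0.20 to 0.90 (log2 changes). Other single-gene results kept their sign: 681 stayed on their side of the threshold, 95 newly passed and 4 no longer did, and without 1 library 477, 6 and 6.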

Other observations

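One library was not placed in a group because its title reads as Ripk3-/- Mlkl-/- and its genotype label as Mlkl-/- Ptpn6∆PMN. It had 12.3 CPM of Ap1s1, 26.7 CPM of Sh2b2, 582 CPM of Ptpn6, 0.0878 CPM of Ripk3, 0.747 CPM of Mlkl and 30.7 CPM of Casp8. For Ripk3, Ripk3-/- Mlkl-/- libraries had 0.0465 and 0.0425 CPM and Mlkl-/- Ptpn6∆PMN libraries 2.91 and 4.52 CPM. For Ptpn6 the same groups had 631 and 551 CPM, and 182 and 193 CPM. In both genes the library lay nearer the genotype of its title.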
